A study of Mus musculus with 18 samples.

Results

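IL-6 and STAT3 driven acute phase genes were followed in the livers of C57BL/6 male mice on 18 one-colour Agilent mouse arrays, 1 array per mouse. The 10 genes were chosen by name and read on every probe that carries them, which gave 13 probes among the 28025 probes named by 1 gene. They are 10 of the 21153 genes named on the array and 10 of the 19598 genes tested. All 13 probes lay well above background on all 18 arrays, so none was lost to the filter on dim probes. From 6 weeks of age the mice ate a diet with 10% fat (LFD) or 60% fat (HFD). After 10 weeks, part of each cohort received methotrexate intraperitoneally at 50 mg/kg for 5 rounds (LFD MTX50 and HFD MTX50), and livers were taken 1 week after the last round. Methotrexate is a folate antagonist used in chemotherapy. The untreated cohorts held 4 mice each and the treated cohorts 5 each. The LFD and HFD mice are labelled as untreated, and a vehicle injection is not given in the sources used here.

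The liver makes the acute phase proteins of the blood, and interleukin 6 (IL-6) is a main signal for them. IL-6 binds its receptor IL-6Rα, encoded by Il6ra, together with the shared subunit gp130, encoded by Il6st. The JAK kinases bound to gp130 phosphorylate STAT3, which enters the nucleus and acts on target promoters. SOCS3 is induced by STAT3, binds gp130 and limits the signal. Lbp, Itih3, Itih4, Hpx, Cp and Lcn2 encode secreted proteins of the response. The roles found among these proteins, though not in each, are to present bacterial lipopolysaccharide to immune cells and to stabilise the hyaluronan matrix. Others are to bind heme, carry copper and sequester bacterial siderophores. Transcripts were measured here, and neither IL-6 protein nor phosphorylated STAT3 was measured on these arrays.

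RefSeq sequence of assembly GRCm38.p6 was at hand for the bases upstream of the start site of 9 of the 10 genes, as 10 windows of 250 bases. Both kinds of sites were searched by their letters, because STAT3 and the C/EBP factors are the known transducers of IL-6 at acute phase promoters. TTCNNNGAA stands for a STAT site and reads the same on both strands, and TTGCNNAA stands for a C/EBP site and was searched on both strands. No window of these genes held both patterns. The STAT letters stood in the windows of 2 of the genes, Socs3 and Itih4, and in 7.02% of all 32851 mouse windows of that length. The C/EBP letters stood in those of 3 genes, Lcn2, Hpx and Cp, and in 9.56% of all windows. Some windows are shown 5′ to 3′ on the strand of the gene, ending at the base before the start site, with the matching letters in capitals. Socs3 and Itih4 are shown for the STAT letters, Lcn2 and Hpx for the C/EBP letters.
Socs3 (chr11:117969367-117969616, - strand): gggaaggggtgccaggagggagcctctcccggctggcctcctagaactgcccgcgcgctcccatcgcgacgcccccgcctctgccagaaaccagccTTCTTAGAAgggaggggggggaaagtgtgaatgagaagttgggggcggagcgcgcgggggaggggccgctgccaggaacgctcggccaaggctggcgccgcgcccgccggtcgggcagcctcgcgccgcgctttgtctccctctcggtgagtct
Itih4 (chr14:30886226-30886475, + strand): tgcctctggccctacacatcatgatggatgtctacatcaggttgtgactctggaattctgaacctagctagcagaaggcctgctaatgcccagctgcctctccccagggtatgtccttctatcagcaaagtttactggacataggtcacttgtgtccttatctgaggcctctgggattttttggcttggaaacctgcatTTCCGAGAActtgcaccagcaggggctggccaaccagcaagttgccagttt
Lcn2 (chr2:32387740-32387989, - strand): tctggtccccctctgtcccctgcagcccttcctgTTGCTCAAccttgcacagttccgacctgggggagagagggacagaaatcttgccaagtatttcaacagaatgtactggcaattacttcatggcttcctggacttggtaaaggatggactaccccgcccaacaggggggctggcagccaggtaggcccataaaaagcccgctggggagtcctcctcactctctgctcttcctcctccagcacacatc
Hpx (chr7:105600117-105600366, - strand): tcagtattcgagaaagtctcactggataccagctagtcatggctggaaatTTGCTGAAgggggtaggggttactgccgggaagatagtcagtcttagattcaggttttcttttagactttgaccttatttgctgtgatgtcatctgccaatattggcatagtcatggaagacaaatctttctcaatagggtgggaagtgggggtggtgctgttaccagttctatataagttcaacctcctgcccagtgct
Counted from the start site, with −1 as the base before it, the capitals begin at −154 in Socs3, −51 in Itih4, −216 in Lcn2 and −200 in Hpx. A match of letters is a description and was not tested as a binding site.

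The level of a gene is given as the log2 of its processed signal minus the log2 of the 75th percentile of the array, so that 0 is the 75th percentile and 1 unit is a doubling. Where a gene has several probes, the brightest is used. A gene is called changed at an adjusted p below 0.05 in limma, adjusted by Benjamini-Hochberg across every probe that passed the filter. The 75th percentile of the processed signal was 1203 to 2263 intensity units over the arrays, and 84.2 to 90.8% of spots lay well above background. Hepatocyte markers were bright in all livers. Their mean log2 level over 8 markers was 5.72 to 5.97 in LFD and 5.99 to 6.28 in LFD MTX50. It was 5.39 to 5.62 in HFD and 5.42 to 5.95 in HFD MTX50. The arrays lay on 6 slides, and LFD and LFD MTX50 mice shared no slide with another group. Slide and group therefore cannot be told apart in HFD vs LFD or LFD MTX50 vs LFD. One slide held HFD mice 3 and 4 with HFD MTX50 mice 1 and 2. HFD MTX50 mice 3, 4 and 5 lay on another slide. In bulk liver RNA, more cells of a type and more RNA per cell cannot be told apart.

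Methotrexate was accompanied by higher levels of most of these genes on both diets, with no such calls for the diet alone. In HFD MTX50 vs HFD, 7 of 10 genes rose and 0 fell, where 11% of all genes tested were called, 4.83% higher and 6.13% lower. In LFD MTX50 vs LFD, 8 of 10 rose and 0 fell, where 28.1% of all genes were called, 17.6% higher and 10.5% lower. With a 2-fold threshold added, 4 and 5 of the genes passed, on the high and the low fat diet, where 0.975% and 4.75% of all genes did. The genes that rose on both diets were Il6ra, Socs3, Lbp, Itih3, Itih4, Hpx and Cp, and Stat3 rose on the low fat diet. Il6st and Lcn2 were not called on either diet. The median log2 difference of the 10 genes was 1.08 on the high and 1.21 on the low fat diet, against −0.04 and 0.10 for all genes.

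**Figure D1:**
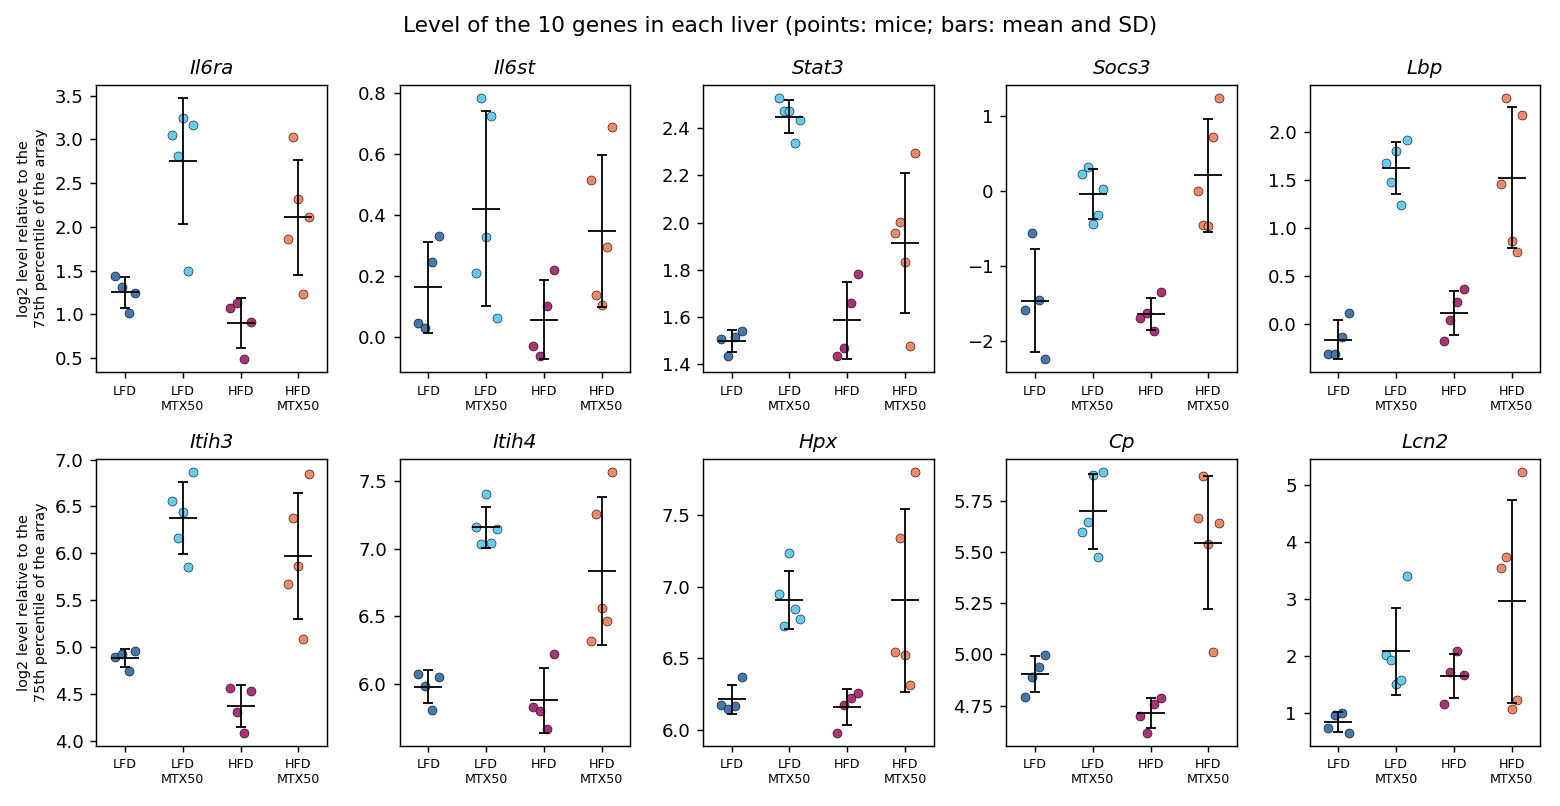
Log2 level of each gene relative to the 75th percentile of the array (vertical axis) in the 4 groups (horizontal axis); points are mice and bars are mean and SD (n = 4 or 5), with a separate scale in each panel. Treated livers lie above untreated livers of the same diet without overlap in 7 genes on the high fat diet and in 9 on the low fat diet, where 5.23% and 17.6% of all genes do.

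Of the receptor genes, Il6ra was called on both diets and Il6st on neither. In Il6ra, which encodes the ligand-binding chain, the log2 levels were 1.43, 1.31, 1.01 and 1.24 in LFD and 3.05, 2.81, 3.25, 1.50 and 3.16 in LFD MTX50. On the high fat diet they were 1.07, 1.13, 0.49 and 0.91 in HFD and 1.86, 3.02, 2.32, 1.23 and 2.11 in HFD MTX50. Every treated liver was above every untreated liver of its diet, although LFD MTX50 mouse 4 and HFD MTX50 mouse 4 lay close to the controls. Il6ra was 2.83-fold higher in LFD MTX50 vs LFD (log2 difference 1.50 ± 0.34 SE, limma adjusted p = 0.0064) and 2.31-fold higher in HFD MTX50 vs HFD (1.21 ± 0.34, limma adjusted p = 0.0335). The second call was lost without HFD mouse 2, 3 or 4 or HFD MTX50 mouse 2, 3 or 5, with adjusted p up to 0.123.

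Il6st, which encodes the signalling subunit gp130 shared by the whole cytokine family, had log2 levels of 0.03 to 0.33 in LFD and 0.06 to 0.78 in LFD MTX50. On the high fat diet the range was −0.06 to 0.22 in HFD and 0.11 to 0.69 in HFD MTX50. The groups overlapped on both diets. The log2 differences were 0.26 ± 0.16 (limma adjusted p = 0.213) and 0.29 ± 0.16 (limma adjusted p = 0.210), on the low and the high fat diet.

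Stat3, the transcription factor of the pathway, was the 1 gene of the 10 whose treatment difference itself differed between the diets. Its log2 levels were 1.51, 1.43, 1.52 and 1.54 in LFD and 2.53, 2.47, 2.47, 2.34 and 2.43 in LFD MTX50. They were 1.44, 1.47, 1.66 and 1.78 in HFD and 1.96, 2.00, 1.83, 1.48 and 2.30 in HFD MTX50. The lean groups were tight and far apart, whereas HFD MTX50 mouse 4 lay inside the HFD range. The mean rose from 1.50 ± 0.05 (SD, n = 4) to 2.45 ± 0.07 (SD, n = 5) on the low fat diet, a 1.93-fold difference (log2 0.95 ± 0.13 SE, limma adjusted p = 0.0005). On the high fat diet the means were 1.59 ± 0.16 (SD, n = 4) and 1.91 ± 0.30 (SD, n = 5), a log2 difference of 0.33 ± 0.13 that was not called (limma adjusted p = 0.093). Without HFD MTX50 mouse 4 this difference was 0.44 and was called (limma adjusted p = 0.0236).

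The difference between the treatment effects in Stat3 was −0.62 ± 0.18 (limma adjusted p = 0.0196), that is, smaller on the high fat diet. In this comparison 1 of 10 genes was called, where 26.8% of all genes were called, 8.66% higher and 18.1% lower. With a 2-fold threshold 0 of the 10 and 7.94% of all genes passed. The median over all genes was −0.11. A second Stat3 probe, on another transcript record, rose by 0.95 (limma adjusted p = 0.0047) on the low fat diet and read 0.63 higher on the high fat diet (limma adjusted p = 0.0527). Its difference between treatment effects was −0.33 ± 0.28 and was not called (limma adjusted p = 0.396). The call on the first probe was lost without HFD mouse 4 (adjusted p = 0.0502), when the median replaced the 75th percentile, and when the slide entered as a random block. For the other 9 genes the difference between treatment effects lay between −0.38 and 0.42.

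Socs3, the feedback inhibitor, rose on both diets. The log2 levels were −1.58, −0.56, −1.45 and −2.23 in LFD and 0.22, 0.31, −0.44, −0.32 and 0.03 in LFD MTX50. They were −1.69, −1.63, −1.86 and −1.35 in HFD and 0.00, −0.45, −0.46, 0.72 and 1.24 in HFD MTX50. No treated liver reached down to an untreated one, and LFD mouse 2 lay closest. Socs3 was 2.67-fold higher in LFD MTX50 vs LFD (log2 difference 1.42 ± 0.34 SE, limma adjusted p = 0.0089) and 3.58-fold higher in HFD MTX50 vs HFD (1.84 ± 0.34, limma adjusted p = 0.0085). Both exact permutation p were 0.00794, two-sided, the smallest that 4 mice against 5 can give.

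Among the secreted proteins, Lbp and Itih3 had the largest differences on both diets. Lbp encodes the lipopolysaccharide binding protein. Its log2 levels were −0.30, −0.31, −0.13 and 0.12 in LFD and 1.67, 1.48, 1.81, 1.24 and 1.92 in LFD MTX50. They were −0.17, 0.04, 0.24 and 0.36 in HFD and 1.46, 2.35, 0.87, 0.75 and 2.18 in HFD MTX50. HFD MTX50 mice 3 and 4 stood at the lower end of the treated range and mice 2 and 5 at the upper end. Lbp was 3.44-fold higher in LFD MTX50 vs LFD (log2 difference 1.78 ± 0.28 SE, limma adjusted p = 0.0012) and 2.64-fold higher in HFD MTX50 vs HFD (1.40 ± 0.28, limma adjusted p = 0.0096).

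Itih3 and Itih4 encode heavy chains of the inter-alpha-trypsin inhibitor family. Itih3 had log2 levels of 4.90, 4.93, 4.74 and 4.96 in LFD and 6.56, 6.17, 6.44, 5.86 and 6.87 in LFD MTX50. It had 4.57, 4.31, 4.09 and 4.53 in HFD and 5.68, 6.37, 5.86, 5.09 and 6.85 in HFD MTX50. The untreated HFD livers were all below the untreated LFD livers, and all treated livers were above both. Itih3 was 2.82-fold higher in LFD MTX50 vs LFD (log2 difference 1.49 ± 0.27 SE, limma adjusted p = 0.0024) and 3.02-fold higher in HFD MTX50 vs HFD (1.60 ± 0.27, limma adjusted p = 0.0067). Itih4 ranged from 5.80 to 6.07 in LFD, 7.04 to 7.41 in LFD MTX50, 5.66 to 6.22 in HFD and 6.32 to 7.57 in HFD MTX50. It rose by 1.18 ± 0.21 (limma adjusted p = 0.0022) and by 0.96 ± 0.21 (limma adjusted p = 0.0144), on the low and the high fat diet. The second Itih4 probe was also called on both diets, at 1.22 and 1.03. Without HFD mouse 3 the rise of Itih4 on the high fat diet was not called (adjusted p = 0.0649).

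Hpx, which encodes hemopexin, ranged from 6.15 to 6.37 in LFD, 6.73 to 7.23 in LFD MTX50, 5.98 to 6.26 in HFD and 6.32 to 7.80 in HFD MTX50. The treated mice were above the untreated mice of their diet, but HFD MTX50 mouse 4 cleared the highest HFD mouse by little. Its rises were small, 0.69 ± 0.23 (limma adjusted p = 0.035) and 0.75 ± 0.23 (limma adjusted p = 0.0475), on the low and the high fat diet. The call on the high fat diet was kept without 5 of the 18 arrays and lost without any 1 of the other 13. That on the low fat diet needed each of LFD mice 1, 2 and 3 and of LFD MTX50 mice 1 and 3. Cp, which encodes the copper carrier ceruloplasmin, ranged from 4.79 to 5.00 in LFD, 5.48 to 5.89 in LFD MTX50, 4.62 to 4.78 in HFD and 5.01 to 5.87 in HFD MTX50. It rose by 0.79 ± 0.14 (limma adjusted p = 0.0021) and by 0.83 ± 0.14 (limma adjusted p = 0.0067). A second Cp probe read 0.67 higher (limma adjusted p = 0.043) and 0.54 higher (limma adjusted p = 0.127).

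**Figure D2:**
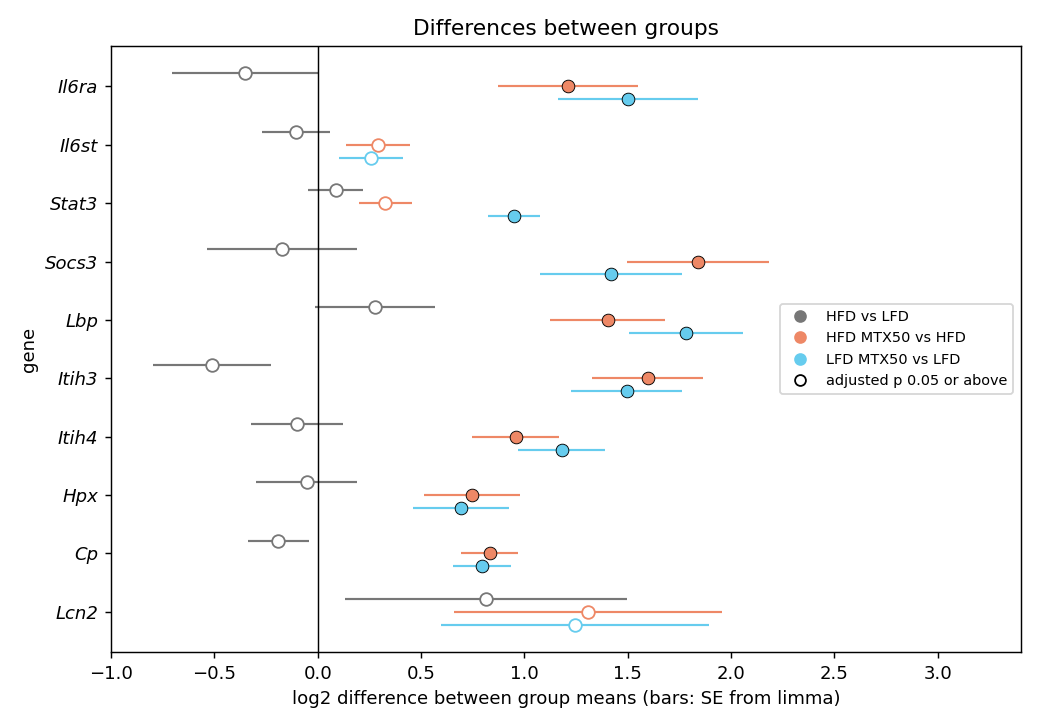
Log2 difference between group means (horizontal axis) for each gene (vertical axis) for the diet effect and the methotrexate effect on each diet; bars are the SE from limma, filled points have an adjusted p below 0.05 and open points do not. The difference in Stat3 is 0.95 on the low and 0.33 on the high fat diet, and those of Lcn2 carry the longest bars.

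Lcn2, which encodes lipocalin 2, varied most from mouse to mouse in every group but LFD. Its log2 levels were 0.74, 0.97, 1.00 and 0.65 in LFD and 2.01, 1.92, 1.50, 1.57 and 3.39 in LFD MTX50. They were 1.15, 1.71, 2.09 and 1.66 in HFD and 3.54, 3.72, 1.07, 1.22 and 5.23 in HFD MTX50. All 5 LFD MTX50 livers were above the LFD livers, whereas HFD MTX50 mice 3 and 4 lay within or below the HFD range and the other 3 far above it. The SD was 1.78 in HFD MTX50 and 0.17 in LFD. The log2 differences were 1.24 ± 0.65 (limma adjusted p = 0.151) and 1.31 ± 0.65 (limma adjusted p = 0.179) on the low and the high fat diet. Neither was called in the common model, and the exact permutation p were 0.0159 and 0.19, two-sided. Fitted on the LFD and LFD MTX50 arrays alone, Lcn2 was called, where 31.7% of all genes were. In the other 12 alternative fits of this comparison that omitted no array it was not called.

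Neutrophils also store lipocalin 2, so their markers are set beside it. Over 9 markers the mean log2 level was −4.01 to −3.75 in LFD, −3.55 to −1.99 in LFD MTX50, −4.01 to −3.13 in HFD and −3.65 to 0.33 in HFD MTX50. Of the full list of 11, 8 lay well above background on all arrays. Elane was left out of the mean after its values were seen, since its probe had a mean level of 5.94 and fell in LFD MTX50 vs LFD. Mmp8 was left out because HFD MTX50 mouse 4 had no value for it. With both, 3 of 11 markers rose and 1 fell on the low fat diet, where 17.6% and 10.5% of all genes did. On the high fat diet 0 of 11 were called by limma, where 11% of all genes were, and 10 of 11 had a positive difference. S100a8, a defining marker, had log2 levels of −2.52, −1.57, 0.40, 1.87 and 3.94 in HFD MTX50 mice 1 to 5. Lcn2 was low in mice 3 and 4, where S100a8 was high, and high in mice 1 and 2, where S100a8 was low. In mouse 5 both were at their highest. Mice 1 and 2 lay on another slide than mice 3, 4 and 5, so their contrast is also one of slides. The mean over the 9 markers was −3.65, −3.10, −2.18, −1.43 and 0.33 in mice 1 to 5, the same order as S100a8. Mmp9, another listed marker, went otherwise, with −4.11, −3.65, −4.17, −4.30 and −4.05. It was lowest in mice 3 and 4 and highest in mouse 2. The part of neutrophils in the Lcn2 difference was not tested.

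**Figure D3:**
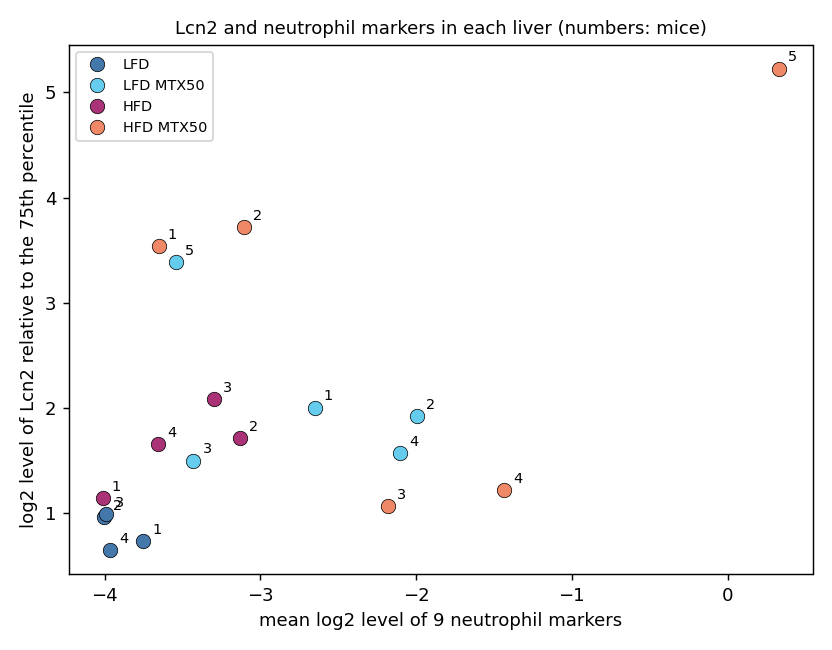
Log2 level of Lcn2 (vertical axis) against the mean log2 level of 9 neutrophil markers (horizontal axis), both relative to the 75th percentile of the array; points are mice, numbered within their group. HFD MTX50 mice 3 and 4 combine an Lcn2 level of 1.07 and 1.22 with marker means of −2.18 and −1.43, and mice 1 and 2 combine 3.54 and 3.72 with −3.65 and −3.10. These pairs of mice lay on different slides.

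Markers of other cells are set beside these rises. The mean over 8 Kupffer cell and macrophage markers was 1.47 to 2.16 in HFD MTX50 and 0.89 to 1.40 in HFD. By limma 0 of 8 were called, and 5 had an unadjusted p below 0.05. All 8 read higher in HFD MTX50, with a median log2 difference of 0.60 against −0.04 for all genes. On the low fat diet the ranges overlapped, with 0 higher and 2 lower of 8. The mean over 4 erythroid markers, 3 of them well above background on all arrays, was −1.40 to −0.90 in HFD and −3.46 to −2.84 in LFD MTX50. In HFD MTX50 it was −2.98, −2.79, −2.49, 0.01 and 0.73 in mice 1 to 5, so mice 4 and 5 stood apart. Of the 3 erythroid markers tested 2 fell on the low fat diet and 0 were called on the high fat diet. The other 7 marker lists, of 3 to 5 tested genes, had 0 to 2 called genes in either treatment comparison. Among them, 2 of 3 adipocyte markers rose on the low fat diet and 1 of 3 on the high fat diet. Adipoq, at a mean log2 level of −4.05, was called on both, with differences of 0.68 and 0.88. Of 8 hepatocyte markers 1 rose on the high fat diet and 2 on the low fat diet. Over all genes 11% were called on the high fat diet and 28.1% on the low fat diet, 17.6% higher and 10.5% lower. The part of these cells in the rises was not tested.

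The mice of the HFD MTX50 group differed among themselves in most of the genes. Mouse 5 had the highest level in 7 of the 10 and mouse 4 the lowest in 6. Mouse 4 of the LFD MTX50 group had the lowest level in 5. The SD over mice was larger in HFD MTX50 than in HFD for 10 of 10 genes and larger in LFD MTX50 than in LFD for 9 of 10, Socs3 being the exception. It was also larger in 76% and 72.6% of all genes. The arrays of HFD MTX50 correlated less with their own group over all probes (0.979 to 0.983) than those of HFD (0.990 to 0.993). Averaged over the 10 genes, the difference from the LFD mean was 0.94, 1.35, 0.61, 0.45 and 1.75 in HFD MTX50 mice 1 to 5. It was 1.19, 1.12, 1.18, 0.82 and 1.36 in LFD MTX50 mice 1 to 5, and between −0.13 and 0.13 in the HFD mice. Without HFD MTX50 mouse 5, the one with the highest neutrophil and erythroid markers, 5 genes were called, Il6ra and Hpx no longer among them. The share of all genes called also fell, to 5.61% from 11%.

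**Figure D4:**
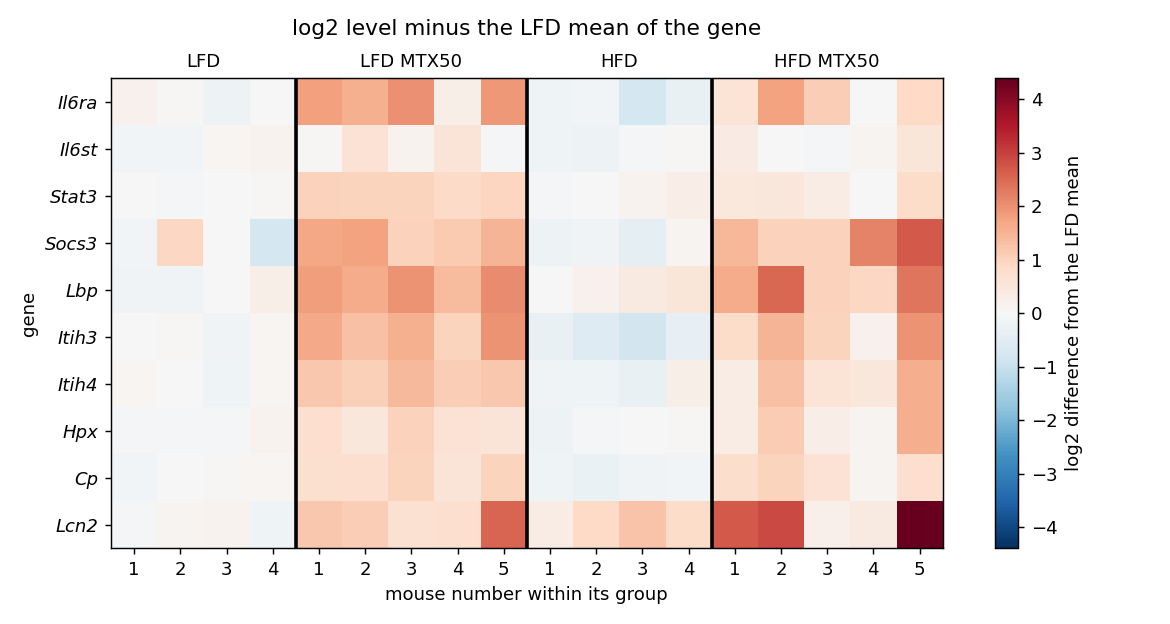
Log2 level minus the LFD mean of each gene (colour) for each gene (rows) and mouse (columns), with groups separated by lines. The treated mice are red in most rows, and HFD MTX50 mouse 4 is pale, with a mean of 0.45 over the genes, beside mouse 5 at 1.75.

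On the slide that held both groups, with the variance taken from all 18 arrays, the log2 differences of HFD MTX50 vs HFD were 1.74 for Il6ra, 1.38 for Socs3, 1.61 for Lbp, 1.71 for Itih3, 0.85 for Itih4, 0.70 for Hpx and 1.00 for Cp. Lbp, Itih3 and Cp were called there, 3 of 10 genes, where 7.29% of all genes were. With the slide as a fixed block 0 genes were called, as were 0% of all genes. Fitted on the HFD and HFD MTX50 arrays alone, 0 of 10 genes passed, as did 0% of all genes. Without HFD mouse 3, 4 of the 7 genes were called, where 1.53% of all genes were. In LFD MTX50 vs LFD the slide as a random block left 3 calls, Stat3, Lbp and Cp, and 1.73% of all genes. Normexp background correction left 0 calls on the high fat diet and 1, Lbp, on the low fat diet, where 0% and 1.73% of all genes were called.

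None of the 10 genes was called for the diet alone in the common model. In HFD vs LFD 0 of 10 were called by limma and 0 had an unadjusted p below 0.05, where 28.3% of all genes were called, 18% higher and 10.4% lower. With a 2-fold threshold 0 of the 10 and 2.86% of all genes passed. The log2 differences ranged from −0.51 to 0.81 with a median of −0.10, against 0.08 for all genes. Itih3 read lower in HFD (log2 difference −0.51 ± 0.28, limma adjusted p = 0.177), as did Cp (−0.19 ± 0.15, limma adjusted p = 0.332), and Lcn2 read higher (0.81 ± 0.68, limma adjusted p = 0.372). In these 3 genes the groups did not overlap, as in 40.3% of all genes, so the share is no higher than the background, with a two-sided exact permutation p of 0.0286, the smallest that 4 mice against 4 can give. Fitted on the LFD and HFD arrays alone, Itih3 and Lcn2 were called, where 41.7% of all genes were. The methods' t-test, given there for readouts such as body weight and not for the arrays, called Cp too after Benjamini-Hochberg adjustment. By that test 35.7% of all genes were called, so neither share of the 10 genes is above the background. HFD vs LFD shares its mice with both treatment comparisons.

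Of the other genes of the pathway, the remaining acute phase genes held the most calls. Of 25 such genes 11 rose on the high fat diet and 14 on the low fat diet, and 0 fell on either. Of all genes 4.83% and 17.6% rose. Their median log2 differences were 0.78 and 0.84. Fgl1, a fibrinogen-like hepatokine, rose 4.63-fold on the high fat diet (log2 difference 2.21 ± 0.32, limma adjusted p = 0.0046) and 5.79-fold on the low fat diet (2.53 ± 0.32, limma adjusted p = 0.0004). The metallothioneins Mt1 and Mt2, which bind zinc and copper, rose by 4.46 and 4.95 on the high fat diet and by 4.84 and 5.15 on the low fat diet. A second, dimmer Mt1 probe, on another transcript record, did not show this rise. It ranged from −0.18 to 0.14 in LFD and −0.29 to 1.36 in LFD MTX50. In HFD it ranged from −0.12 to 0.24 and in HFD MTX50 from −0.36 to 0.81, so the groups overlapped. Mt2 had log2 levels of 5.06, 6.65, 4.00, 1.56 and 7.06 in HFD MTX50 mice 1 to 5 and −0.63 to 0.43 in HFD. Mouse 4 was lowest and mouse 5 highest in it too. Apcs, the mouse serum amyloid P component, rose by 1.46 and 1.93.

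Fewer of the cytokine and JAK-STAT genes were called. Of 17 genes 3 rose on the high fat diet and 4 on the low fat diet, and 0 fell, where 11% and 28.1% of all genes were called. Lif, Ptpn2 and Jak1 rose on the high fat diet, by 0.70, 0.52 and 0.39. Ptprt, the oncostatin M receptor gene Osmr, Clcf1 and Osm rose on the low fat diet, by 1.52, 1.22, 0.94 and 0.41. The median log2 differences were 0.03 and 0.17, close to those of all genes. Il6 itself was not called on either diet. Its probe had a mean log2 level of 1.19, above the 75th percentile of the array, and whether it reads Il6 alone was not checked. Its log2 levels were 0.21 to 0.59 in LFD, 0.98 to 1.88 in LFD MTX50 and 0.46 to 1.11 in HFD, and 1.43, 2.75, 1.04, 0.93 and 3.53 in HFD MTX50. The differences were 1.06 ± 0.41 (limma adjusted p = 0.059) and 1.09 ± 0.41 (limma adjusted p = 0.0846), on the low and the high fat diet.

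In the SOCS family, besides Socs3, the growth hormone responsive inhibitor Socs2 rose by 2.68 ± 0.29 on the low fat diet and by 0.94 ± 0.29 on the high fat diet (limma adjusted p = 0.0001 and 0.0465). The difference between the treatment effects was −1.74 ± 0.41 (limma adjusted p = 0.0092), in the same direction as in Stat3. Socs7 rose on the high fat diet by 0.70 and fell by 0.33 on the low fat diet. Cish rose by 2.33 on the low fat diet (limma adjusted p = 0.0359). Of 7 genes 2 rose and 0 fell on the high fat diet, and 2 rose and 1 fell on the low fat diet. Of all genes 11% and 28.1% were called there. Of the other 4 genes of the inter-alpha-trypsin inhibitor family none was called on the high fat diet by limma, where 0 had an unadjusted p below 0.05. On the low fat diet Itih2 rose by 0.41 and Itih5 fell by 0.81.

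**Figure D5:**
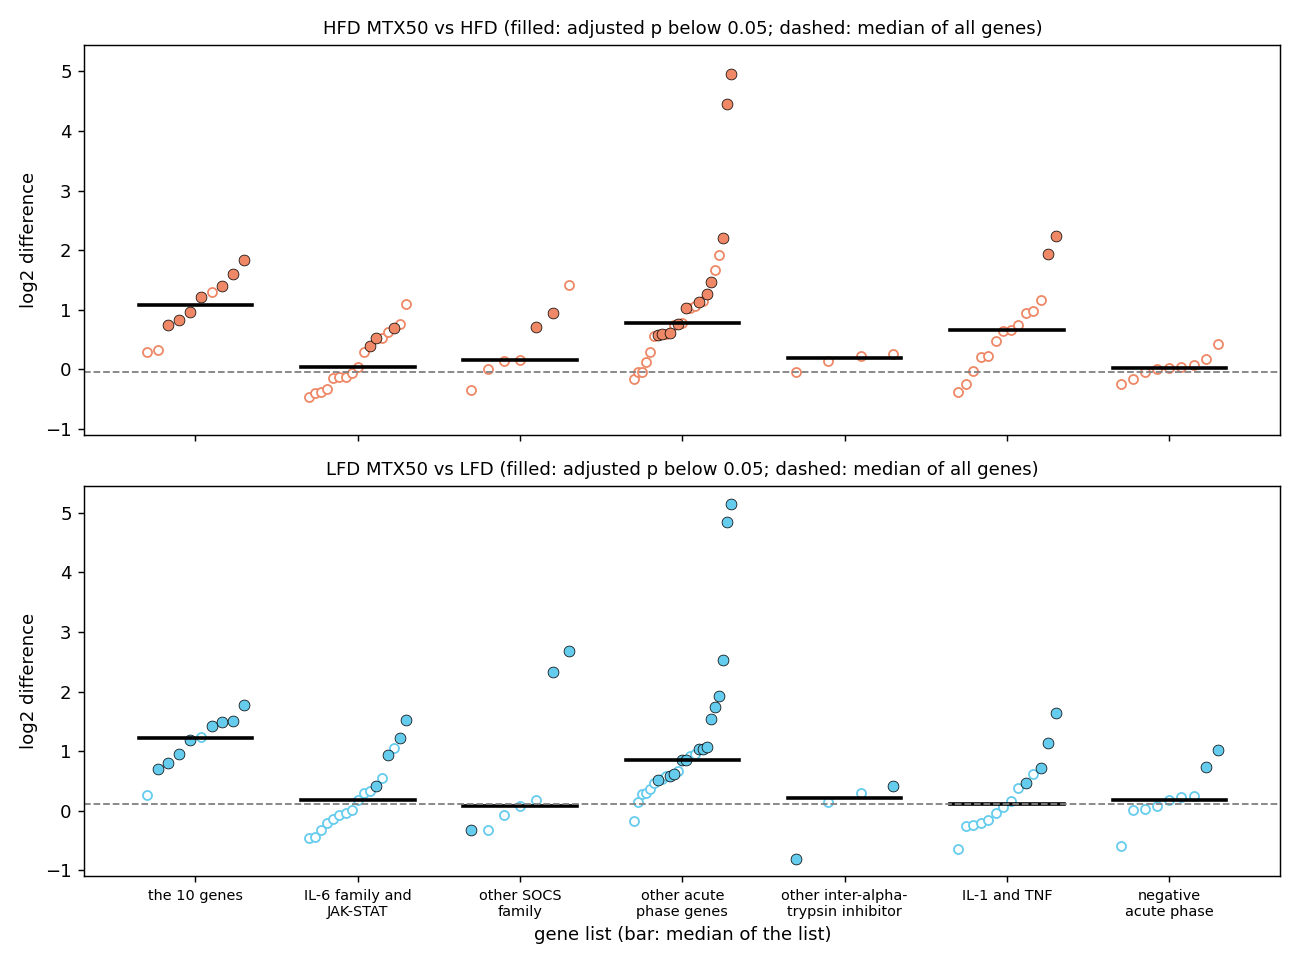
Log2 differences (vertical axis) of the genes in each list (horizontal axis) after methotrexate on each diet; points are genes, filled where the adjusted p is below 0.05, bars are list medians and the dashed line is the median of all genes. The medians of the 10 genes and of the other acute phase genes lie above the dashed line, at 1.08 and 0.78 on the high fat diet and 1.21 and 0.84 on the low fat diet.

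Of the IL-1 and TNF genes, which act with IL-6 on acute phase promoters, 2 of 14 rose on the high fat diet and 4 on the low fat diet, and 0 fell. These shares lie near the 11% and 28.1% of all genes called. On the high fat diet the median log2 difference of the list was 0.66, against −0.04 for all genes. There 11 of 14 differences were positive and 8 had an unadjusted p below 0.05 by limma. The low fat diet gave a list median of 0.12, against 0.10, with 8 of 14 positive. The chemokine gene Cxcl1 rose by 2.25 and 1.64, and the IL-1 receptor gene Il1r1 by 1.94 and 1.13, on the high and the low fat diet. Of 9 negative acute phase genes, whose proteins fall in classical acute phase responses, 0 were called by limma in HFD MTX50 vs HFD, and 1 had an unadjusted p below 0.05. In LFD MTX50 vs LFD 2 rose and 0 fell, Fetub by 1.02 and Apoa1 by 0.74. Their median log2 differences were 0.03 and 0.18, close to the −0.04 and 0.10 of all genes.

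The genes whose level followed these most closely over the 18 arrays are given as a description, since the arrays share groups and slides. Closest to Lcn2 were the probe named Il6 (Pearson r = 0.92), Cpne8 (0.91) and Rasal1 (0.91). Among the closest to Socs3 were Mob3c (0.88) and Slc4a4 (0.87). Closest to Stat3 were Cables1 (0.97), Inca1 (0.95) and Apex2 (0.94). Closest to Lbp were Acnat2, Fgl1 and Serpini2 (each 0.95). Within groups, after removal of the group means, r was 0.87 to 0.91 for the genes named with Lcn2, 0.60 and 0.77 for those with Socs3, 0.75 to 0.95 for those with Stat3 and 0.73 to 0.95 for those with Lbp.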

How the data were processed

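Liver RNA of 18 mice was hybridised to 1-colour Agilent arrays. Per the labels the RNA was extracted with Trizol and RNeasy and amplified with a Low RNA Input kit, whereas the methods name RNeasy and Quick Amp. The authors' scans were quantified in Agilent Feature Extraction 10.7.3.1 (per the submitters' processing notes), which gave the deposited intensity on a linear scale, with background subtracted and trends within an array removed, not normalized between arrays. Here log2 was taken of each deposited processed signal, and the log2 of the 75th percentile over non-control spots was subtracted array by array. Spots the software marked as outliers (124 to 294 on an array) were dropped, and 0 were saturated. A probe was kept if well above background on at least 4 arrays (35739 of 39429 probes). Genes were named through RefSeq accessions, which gave 1 symbol to 28025 probes. The deposited value table of the series matched the background-subtracted intensity in 100% of values within 1% and served as an alternative.

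limma 3.58.1 (R 4.3.3) fitted 1 model with 4 group means, and Benjamini-Hochberg adjustment ran over all kept probes. Exact permutation tests accompany single genes. The number of arrays limits the precision. The method was tested on simulated data. The members, the gene lists and the tests were chosen with earlier results of these data known. Besides the 10 genes, at most 4 called genes of each list were named per comparison, by size of difference, and for Lcn2, Socs3, Stat3 and Lbp the 3 most correlated genes, of which 1 is not reported here. Elane, S100a8 and the other markers given singly were chosen after their values were seen. The scanner files gave no mean spot signal, so the normexp alternative (offset 50) used the median spot signal and the median local background. Other alternatives were quantile normalization, median scaling, the value table, other filters on dim probes, robust variances with an intensity trend, fits on the compared groups alone, the methods' t-test (given there for readouts such as body weight and not for the arrays), a 2-fold threshold, averaging a gene's probes, blocking on slide or on replicate number, and omission of each array in turn. The fit within the shared slide with the variance of all arrays was chosen after seeing the data.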

Additional observations from a re-analysis of the deposited data

Results flagged for a closer look

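Among 40 sets of gene and group, 3 held a mouse far from the rest by Dixon's ratio, where chance gives about 1 in 20. The Il6ra level of LFD MTX50 mouse 4 was 1.50, and the nearest of its group was 2.81. The Hpx level of LFD mouse 4 was 6.37, and the nearest was 6.17. The Lcn2 level of LFD MTX50 mouse 5 was 3.39, and the nearest was 2.01. The treatment difference in Stat3 differed between the diets by −0.62 on the log2 scale (limma adjusted p = 0.0196), with −0.33 on its second probe (limma adjusted p = 0.396). Slide and group cannot be told apart in this difference.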

How the results depend on the processing

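In HFD MTX50 vs HFD, 7 genes were called. The count was 0 under normexp background correction, with only the groups compared, by the methods' t-test and with the slide as a fixed block. Under each of these 0% of all genes were called. It was 4 with a 2-fold threshold and 3 within the shared slide, where 0.975% and 7.29% of all genes were called. With 1 array left out it was between 4 (HFD mouse 3 omitted) and 8 (HFD MTX50 mouse 4 omitted). In those fits 1.53% and 9.13% of all genes were called. In LFD MTX50 vs LFD, 8 were called. The count was 1 under normexp, 5 with a 2-fold threshold, 3 with the slide as a random block, and 7 to 8 with 1 array left out. Of all genes 1.73%, 4.75%, 1.73% and 16.3 to 31.7% were called there. In HFD vs LFD, 0 were called, 2 with only the groups compared and 3 by the methods' t-test. Of all genes 28.3%, 41.7% and 35.7% were called there. The 1 gene whose treatment effects differed was lost (0 called) under normexp, median scaling, a 2-fold threshold, the slide as a random block and the mean of a gene's probes. In those settings 0%, 24.9%, 7.94%, 6.37% and 25.2% of all genes were called. With 1 array left out the count was 0 to 1. It was 0 without HFD mouse 4, where 15.9% of all genes were called. Normexp moved the median of all genes to 0.38 for the diet and to 0.39 and 0.47 for methotrexate on the high and the low fat diet, and called 0.0102%, 0% and 1.73% of all genes. No direction turned in the treatment comparisons. In HFD vs LFD uncalled differences turned sign. Stat3 was −0.16 under normexp, −0.012 with median scaling and −0.0050 with the mean of its probes. Socs3 was 0.15 under normexp and −0.43 to 0.12 with 1 array left out. Under quantile normalization Itih4 and Hpx were 0.14 and Cp was 0.11, and Hpx was −0.087 to 0.0052 with 1 array left out. The deviations of same-numbered mice from their group means had correlations of −0.31 to 0.25, of both signs. With so few mice this check cannot exclude a pairing by number, and the common model used none. The replicate block left 6 calls on the high fat diet, 7 on the low fat diet, 0 for the diet itself and 1 in the difference between treatment effects. Of all genes 5.17%, 27.6%, 27.1% and 25.8% were called there. The cause of these changes was not tested.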
